A study of Mus musculus with 18 samples.

Results

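The 5 DNA topoisomerase genes Top1, Top2a, Top2b, Top3a and Top3b were followed in bulk RNA sequencing of mouse cerebral cortex and embryonic stem cells. They were chosen by name, as the rows whose gene identifier, without its version, carries such a symbol in the GENCODE mouse release M21, and all 5 were found among the 54281 gene rows. The cortex came from male C57BL/6J mice, labelled Mcph1 knockout (Mcph1KO) or wild-type (WT). The stages were E17.5 (embryonic), P4 (postnatal), A6w and A18w. The labels of the 2 later stages are taken here as given, with A read as adult and w as weeks. R1 mouse embryonic stem cells (mESC), an established line, were measured in WT only. Each of the 9 groups held 2 libraries, 18 in all. The labels give neither the Mcph1 allele nor the number of animals behind a library, so the p-values below measure the spread between libraries, which may be technical.

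Topoisomerases remove the torsion and the tangles that arise when DNA is copied, transcribed or separated. The type I enzymes TOP1, TOP3A and TOP3B cut a single strand, and the type II enzymes TOP2A and TOP2B cut both strands and pass another duplex through the gap. TOP2A is known from dividing cells, where it untangles sister chromosomes and shapes mitotic chromosomes, and TOP2B from cells that have left the cycle, neurons among them. TOP1 and TOP2B are known to assist transcription of long genes in neurons. TOP3A works with BLM, RMI1 and RMI2 on recombination intermediates and also in mitochondria, and TOP3B with TDRD3 and FMRP on RNA as well as DNA. MCPH1 (microcephalin) restrains condensin II, a chromosome-compacting complex, and its loss causes microcephaly with premature chromosome condensation.

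The libraries held 23531045 to 32041849 counts each, and no 2 libraries of a group were copies of each other. Levels are given as CPM, counts divided by library size and brought to a common scale, with library sizes corrected by TMM factors over the 18 libraries. Mcph1 itself had 11.8 to 16.6 CPM in the cortex libraries labelled Mcph1KO and 8.33 to 12.3 CPM in those labelled WT, so its count did not show the loss, and a gene total cannot check a deletion of part of the gene. Of the markers of cortical identity, Tbr1 had at most 0.0442 CPM in mESC and 139 to 349 CPM in cortex, Emx1 at most 0.121 CPM in mESC and 6.16 to 51.4 CPM in cortex, and Neurod6 had no count in mESC and 57.6 to 546 CPM in cortex. The summed pluripotency markers had 5460 and 5840 CPM in mESC and 24.2 to 140 CPM in cortex. Most of the cortex sum was Sox2, also listed as a neural progenitor marker, with 99.1 to 140 CPM at E17.5 and 21.8 to 33.4 CPM at A6w. Of the E17.5 libraries, those numbered 1 stood apart from those numbered 2: 19 genes of the G2 and M phases summed to 1190 against 708 CPM in the libraries labelled Mcph1KO and to 1060 against 560 CPM in the WT libraries. Thalamus markers summed to 32.1 against 155 CPM and to 28.0 against 216 CPM in the same libraries. Choroid plexus markers ranged from 2.18 to 896 CPM over the cortex libraries.

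Top2a (ENSMUSG00000020914.17, chr11:98992943-99024189, minus strand, GRCm38) and Top2b (ENSMUSG00000017485.11, chr14:16365179-16435462, plus strand) are separate genes with separate promoters. The 250 bases before each RefSeq transcription start (GRCm38.p6) are shown because these genes ran in opposite directions between stem cells and embryonic cortex. Capitals mark 3 motifs, read on either strand. CCAAT is the box bound by NF-Y. The letters of the cell cycle genes homology region are TTTGAA, and a variant of that region reads TTCGAA.
Top2a, chr11:99024190-99024439, minus strand: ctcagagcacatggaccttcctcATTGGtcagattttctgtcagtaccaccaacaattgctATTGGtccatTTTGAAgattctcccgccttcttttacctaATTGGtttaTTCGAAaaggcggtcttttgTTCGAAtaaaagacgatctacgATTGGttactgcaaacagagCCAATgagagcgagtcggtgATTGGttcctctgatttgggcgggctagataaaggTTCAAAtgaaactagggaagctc
Top2b, chr14:16364956-16365205, plus strand: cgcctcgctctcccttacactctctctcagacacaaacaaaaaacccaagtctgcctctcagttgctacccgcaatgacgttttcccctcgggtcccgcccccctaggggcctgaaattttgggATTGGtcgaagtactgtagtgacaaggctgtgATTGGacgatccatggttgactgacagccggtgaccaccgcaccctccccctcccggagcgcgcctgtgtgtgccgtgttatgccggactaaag

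The Top2a window held 6 CCAAT boxes, 2 matches to TTTGAA and 2 matches to the variant TTCGAA, and 43.6% of its bases were G or C. The Top2b window held 2 CCAAT boxes and no match to either form of the homology region, with 57.6% G or C. Among 32851 promoter windows of the same length, 33.8% held CCAAT, 0.0578% held 6 or more CCAAT, 16% held TTTGAA and 1.34% held the variant TTCGAA, each read on both strands. Of the 16 G2 and M phase genes with a window, 13 held CCAAT, 6 held TTTGAA and 1 held the variant TTCGAA. These matches describe letters only. RefSeq windows were matched for 4 of the 5 genes, and Top3a had none in the table used. The Top3b window held 1 CCAAT box and no match to either form of the homology region. In the Top1 window none of the 3 motifs was found. The letters GGGCGG (GC box), not marked above, occurred 1 time each in the Top2a and Top2b windows. They stood in 32.7% of all windows and in 12 of the 16 windows of G2 and M phase genes.

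Top2a had the widest range of the 5 genes. It had 603 and 977 CPM in mESC. At E17.5 it had 240 and 156 CPM in the libraries labelled Mcph1KO and 214 and 121 CPM in the WT libraries. At P4 the values were 41.3 and 42.1 CPM (Mcph1KO) and 73.0 and 40.2 CPM (WT). At A6w they were 1.22 and 3.52 CPM (Mcph1KO) and 2.40 and 1.13 CPM (WT), and at A18w 2.62 and 1.21 CPM (Mcph1KO) and 1.54 and 1.45 CPM (WT). The mESC, E17.5 and P4 libraries did not overlap with each other or with the later stages, whereas the A6w and A18w libraries overlapped. The adult values rest on 27 to 83 counts per library: the highest, 3.52 CPM, has an exact Poisson 95% interval of 2.81 to 4.37 CPM and the lowest, 1.13 CPM, of 0.765 to 1.60 CPM, for counting error only. In bulk tissue, fewer cells that carry a transcript and less of it per cell cannot be told apart.

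Top2b ran the other way between stem cells and embryonic cortex. It had 83.7 and 82.5 CPM in mESC. At E17.5 it had 550 and 484 CPM (Mcph1KO) and 550 and 466 CPM (WT), at P4 292 and 359 CPM (Mcph1KO) and 358 and 360 CPM (WT). At A6w it had 128 and 149 CPM (Mcph1KO) and 119 and 136 CPM (WT), and at A18w 134 and 137 CPM (Mcph1KO) and 108 and 136 CPM (WT). Every cortex library lay above both mESC libraries, and E17.5 lay above P4 and P4 above the adult stages without overlap. Exons of other genes overlap 1793 bases of the Top2b exons (Rarb and an antisense gene on the opposite strand); whether the counting used strand is not given in the sources used here.

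Top1 (ENSMUSG00000070544.6, chr2:160645888-160722764, plus strand), which relaxes DNA during transcription and replication, had 193 and 162 CPM in mESC. At E17.5 it had 264 and 204 CPM (Mcph1KO) and 245 and 191 CPM (WT), and at P4 70.8 and 134 CPM (Mcph1KO) and 128 and 121 CPM (WT). At A6w it had 72.9 and 93.6 CPM (Mcph1KO) and 80.6 and 100 CPM (WT), and at A18w 78.0 and 88.9 CPM (Mcph1KO) and 74.2 and 93.4 CPM (WT). The P4 library labelled Mcph1KO and numbered 1 was the lowest of all 18 libraries for Top1, below the adult ones. The mESC and E17.5 values overlapped, as did the P4, A6w and A18w values.

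Top3a (ENSMUSG00000002814.15, chr11:60740058-60777365, minus strand) was the lowest of the 5 genes in mESC, E17.5 and P4 CPM. It had 39.8 and 31.7 CPM in mESC, 9.30 to 14.9 CPM at E17.5, 4.84 to 8.12 at P4, 3.38 to 5.77 at A6w and 3.45 to 4.18 at A18w. Top3b (ENSMUSG00000022779.16, chr16:16870736-16892990, plus strand) had 73.6 and 93.2 CPM in mESC, 30.3 to 38.4 at E17.5, 25.9 to 30.1 at P4, 22.6 to 24.9 at A6w and 20.9 to 24.9 at A18w. Both genes were highest in mESC without overlap with cortex, and in cortex E17.5 lay above P4 for both. The P4 and A6w ranges overlapped for Top3a but not for Top3b, and the A6w and A18w ranges overlapped for both.

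**Figure D1:**
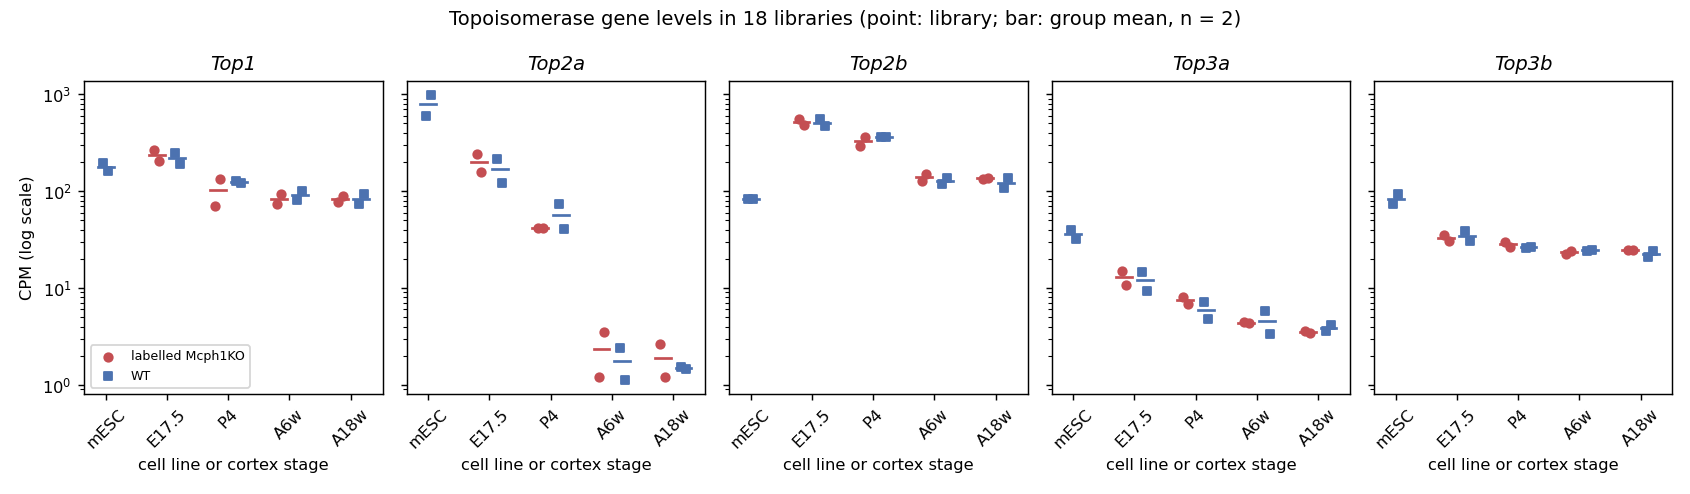
CPM (log axis) of the 5 topoisomerase genes in each of the 18 libraries, by cell line or cortex stage; points are libraries, bars group means of 2 libraries, with the libraries labelled Mcph1KO left of WT. Top2a spans 1.13 to 977 CPM, whereas Top3b spans 20.9 to 93.2 CPM.

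Divided by the summed length of their exons, the levels give an order within a library. In mESC Top2a led at 87.7 CPM per kb, ahead of Top1 (17.1), Top3b (9.93), Top3a (7.78) and Top2b (5.69). At E17.5 the stage means were 35.1 CPM per kb for Top2b, 21.7 for Top1, 20.3 for Top2a, 4.01 for Top3b and 2.71 for Top3a. In A18w cortex Top2b (8.84) and Top1 (8.02) stood side by side above Top3b (2.83), Top3a (0.802) and Top2a (0.189). Which of Top1 and Top2b came first at E17.5, A6w and A18w depended on the length used: by the longest coding transcript, Top1 led with 58.6 against 49.6 CPM per kb at E17.5. As a share of the 5 genes' summed CPM per kb, Top2a made up 61.6% to 73.4% in mESC, 19.4% to 27.5% at E17.5, 9.91% to 16.4% at P4, 0.549% to 1.67% at A6w and 0.618% to 1.4% at A18w.

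The ratio of Top2a to Top2b within a library does not depend on library size. Per kb of exon it was 11.7 and 19.2 in mESC, 0.422 to 0.708 at E17.5, 0.181 to 0.331 at P4, 0.0134 to 0.0383 at A6w and 0.0143 to 0.0316 at A18w. Top2a thus exceeded Top2b in both stem cell libraries and in no cortex library, by either length and in the counts themselves. At E17.5 the ratio was 0.708 and 0.523 in the libraries labelled Mcph1KO and 0.631 and 0.422 in WT, with the libraries numbered 1 the higher in each genotype. The P4 ratios were 0.229 and 0.190 (Mcph1KO) and 0.331 and 0.181 (WT). The genotypes overlapped at each stage, and so did A6w and A18w.

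**Figure D2:**
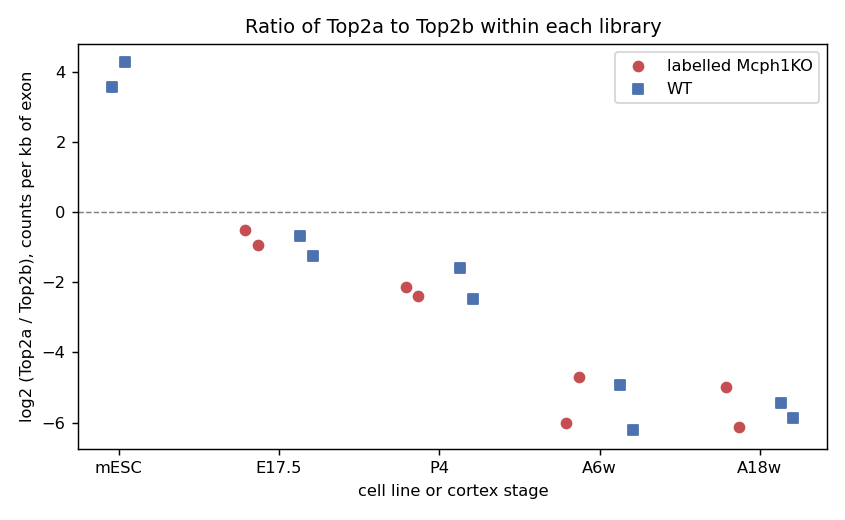
Log2 ratio of Top2a to Top2b, each as counts per kb of exon, in each of the 18 libraries; the dashed line marks equal levels and the libraries labelled Mcph1KO stand left of WT. The stem cell libraries lie at 3.55 and 4.26, and the cortex libraries between -0.50 and -6.22.

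The stem cell libraries were set against E17.5 WT cortex with edgeR's quasi-likelihood test in a fit of the 10 WT libraries, with Benjamini-Hochberg adjustment over the 19466 genes tested and a call at an adjusted p under 0.05. Of the 5 genes 4 were called, 3 higher and 1 lower, where 68.0% of all genes tested were called (32.7% higher, 35.3% lower). Top2a was higher in mESC by 2.28 ± 0.41 on the log2 scale (SE, adjusted p = 0.000648), Top3a by 1.60 ± 0.34 (adjusted p = 0.00193) and Top3b by 1.31 ± 0.20 (adjusted p = 0.000184). Top2b was lower, with a log2 fold change of -2.58 ± 0.21 (adjusted p = 1.78e-06), which is 16.8% of its E17.5 WT level. Top1 differed by -0.26 ± 0.21 (adjusted p = 0.302). A cell line in culture and a tissue differ in more than cell type, and these sources cannot be told apart here. Without TMM factors the median of all genes moves to -0.36 on the log2 scale, against -0.06 with them.

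The step between E17.5 and P4 was tested over both genotypes in a fit of the 16 cortex libraries (19199 genes). Of the 5 genes 4 were called, all lower at P4, where 36.8% of all genes were called and 17.9% were called lower (18.9% higher). Top2a fell by the most, with a log2 fold change of -1.89 ± 0.32 (adjusted p = 0.000658), so that P4 cortex held 26.9% of the E17.5 level. Top1 fell with -0.99 ± 0.19 (adjusted p = 0.00142), Top3a with -0.88 ± 0.23 (adjusted p = 0.00878) and Top2b with -0.57 ± 0.12 (adjusted p = 0.00216). Top3b had -0.29 ± 0.11 (adjusted p = 0.0561). The Top3a call was lost without E17.5 WT library 1 (adjusted p = 0.0522), without both E17.5 libraries numbered 1 (0.149) and within the libraries labelled Mcph1KO alone (0.108), and those of Top1 (0.0520) and Top2b (0.0536) within WT alone. Top3b passed with DESeq2 (adjusted p = 0.0456), without TMM factors (0.0294), without E17.5 WT library 2 (0.0361) and without E17.5 Mcph1KO library 2 (0.0437).

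At A6w against P4, 3 of the 5 genes were called, a share near the 55.1% of all genes. All 3 were lower, where 27.8% of all genes were called lower (27.3% higher). This step shares its P4 libraries with the one before. Top2a fell further, with a log2 fold change of -4.62 ± 0.38 (adjusted p = 4.77e-07), and Top2b with -1.39 ± 0.12 (adjusted p = 6.06e-07). Top3a fell with -0.61 ± 0.23 (adjusted p = 0.0374), whereas Top1 had -0.41 ± 0.19 (adjusted p = 0.0776) and Top3b -0.22 ± 0.11 (adjusted p = 0.117). The Top3a call was lost without P4 WT library 1 (adjusted p = 0.154), A6w WT library 2 (0.152), P4 Mcph1KO library 1 (0.109) or either A6w Mcph1KO library (0.0822 and 0.0867), within WT (0.319) or Mcph1KO (0.0678) alone, with only the libraries compared (0.0548) and without both A18w libraries numbered 1 (0.0598). Top1 passed without P4 Mcph1KO library 1, its lowest library (-0.60, adjusted p = 0.00832), without a filter on low counts (0.0168) and without TMM factors (-0.63, adjusted p = 0.00834), where Top3b passed too (-0.44, adjusted p = 0.00371). That scaling moves the median of all genes to -0.28 on the log2 scale, against -0.06 with TMM factors, and the share of called genes that were higher to 36.3%, against 49.5%.

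Between A18w and A6w no topoisomerase gene was called by edgeR, where 0.135% of all genes were (0.104% higher, 0.0313% lower). These were 26 genes (1706 at an unadjusted p under 0.05 and 235 with DESeq2, no topoisomerase gene among the DESeq2 calls). The log2 fold changes were -0.25 for Top2a, -0.28 for Top3a, -0.06 for Top1, -0.05 for Top2b and -0.02 for Top3b, with adjusted p between 0.798 and 0.987. Over the whole span, A18w against E17.5, all 5 genes fell, where 65.4% of all genes were called and 33.4% were called lower (32.0% higher). Top2a fell with -6.77 ± 0.41 (adjusted p = 1.63e-08), which is 109-fold lower, and 67 of the 19199 genes had a lower log2 fold change. Top2b (-2.02 ± 0.12, adjusted p = 1.29e-08), Top3a (-1.78 ± 0.23, adjusted p = 1.77e-05), Top1 (-1.46 ± 0.19, adjusted p = 1.51e-05) and Top3b (-0.53 ± 0.11, adjusted p = 0.000979) fell less. Without TMM factors the median of all genes moves to -0.30 on the log2 scale, against -0.04 with them.

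**Figure D3:**
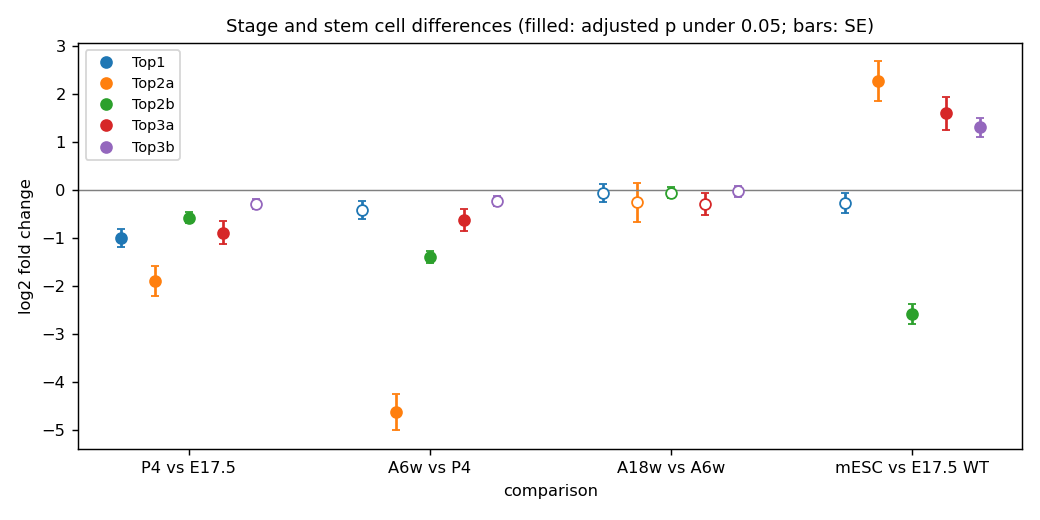
Log2 fold change (bars: SE; filled points: adjusted p under 0.05) of each topoisomerase gene at the 3 steps between cortex stages and for mESC against E17.5 WT cortex. Top2a has the lowest value at P4 against E17.5 (-1.89) and at A6w against P4 (-4.62), and Top2b is the called gene that lies below 0 in mESC (-2.58).

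Genes that work with topoisomerases or mend their DNA adducts were taken from a list of 14. At P4 against E17.5 their median log2 fold change was -0.55, against 0.03 over all genes. Of the 14, 8 were called lower and none higher, where 36.8% of all genes were called and 17.9% lower. These included Rmi2 (-2.06 ± 0.29) and Blm (-1.34 ± 0.24) of the complex that holds TOP3A, and Topors (-0.71 ± 0.13), a ubiquitin and SUMO ligase named for binding TOP1. At A6w against P4, 8 of the 14 were called, a share near the 55.1% of all genes, and all 8 fell, where 27.8% of all genes were called lower (median -0.61, all genes -0.06). The smallest adjusted p was that of Tdrd3 (-1.14 ± 0.12), the scaffold of TOP3B. Topbp1, a checkpoint scaffold named for binding TOP2B, had -0.91 ± 0.15, and Tdp1, which removes TOP1 adducts from DNA, had -0.80 ± 0.15. No list gene was called at A18w against A6w. At A18w against E17.5, 11 were called lower, where 65.4% of all genes were called and 33.4% lower (median -0.96, all genes -0.04). Fmr1 (0.01 ± 0.10), Nbn (0.11 ± 0.13) and Rmi1 (-0.27 ± 0.14) were not called. Rmi1, the core partner of TOP3A, had 15 to 17.9 CPM at A18w and 18.7 to 22 CPM at E17.5, whereas Rmi2 had 0.396 to 0.608 CPM at A18w and 3.16 to 5.61 CPM at E17.5.

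In mESC against E17.5 WT cortex, 12 of the 14 were called higher and 1 lower, where 68.0% of all genes were called (32.7% higher, 35.3% lower). The median was 1.58, against -0.06 over all genes. Mre11a (2.65 ± 0.20) and Rad50 (2.29 ± 0.22), which trim DNA ends blocked by proteins, Blm (3.02 ± 0.29) and Tdp2 (1.92 ± 0.21), which removes TOP2 adducts, had the smallest adjusted p. Tdrd3 was the lower gene, at 15.8 and 15.9 CPM in mESC and 45.4 to 51.4 CPM over the E17.5 cortex libraries (log2 fold change -1.58 ± 0.19, adjusted p = 3.4e-05), while Top3b was higher in mESC. Zfp451, a SUMO ligase that assists TDP2, was not called (-0.27 ± 0.21). Of the 3 remaining topoisomerase genes, mitochondrial Top1mt was the 1 called at P4 against E17.5, where 36.8% of all genes were called and 18.9% higher. It was higher at P4 (0.53 ± 0.17, adjusted p = 0.0237), with 10.9 to 12.1 CPM against 7.41 to 8.93 CPM. At A6w against P4, 2 of the 3 were called, both lower, where 55.1% of all genes were called and 27.8% lower. In mESC against E17.5 WT cortex, 2 of the 3 were called, both lower, where 68.0% of all genes were called and 35.3% lower. Spo11, the meiotic enzyme related to archaeal topoisomerase VI, had at most 42 counts in any library, and its partner Top6bl stood in the table as Gm960.

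**Figure D4:**
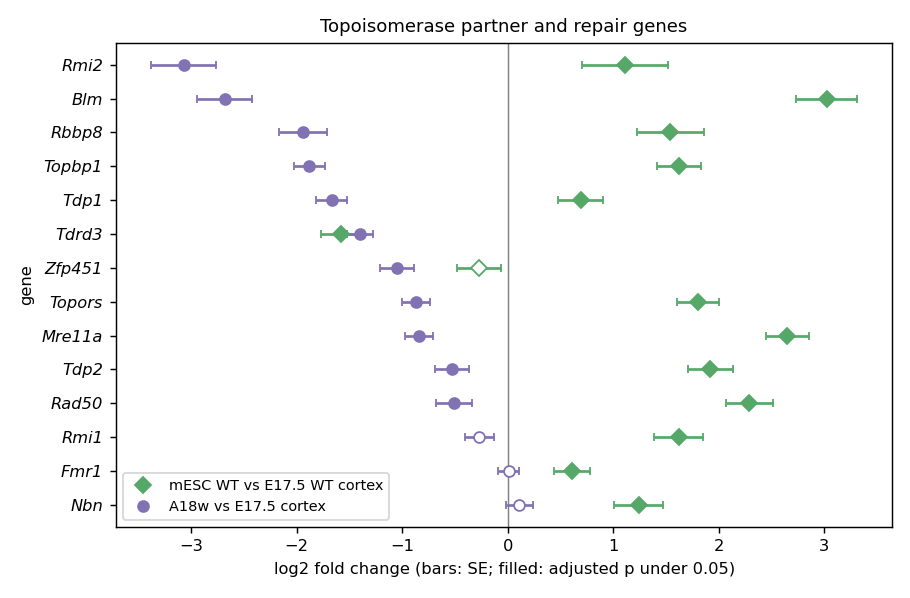
Log2 fold change (bars: SE; filled symbols: adjusted p under 0.05) of the 14 partner and repair genes in mESC against E17.5 WT cortex (diamonds) and in A18w against E17.5 cortex (circles). Tdrd3 is the called gene below 0 in both, at -1.58 and -1.40.

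Top2a was set beside the cell cycle. All 19 genes of a G2 and M phase list fell at P4 against E17.5 (median log2 fold change -1.99, all genes 0.03) and again at A6w against P4 (median -3.40, all genes -0.06), where 17.9% and 27.8% of all genes were called lower. In mESC 18 of the 19 were called higher than in E17.5 WT cortex (median 2.79, all genes -0.06), where 32.7% of all genes were called higher. Tpx2, a spindle assembly factor, had -1.91 ± 0.21 and -2.92 ± 0.24 at the 2 steps in cortex. Mki67, the proliferation marker Ki-67, had -4.45 ± 0.37 at A6w against P4, beside -4.62 for Top2a. In mESC Mki67 was not called, at 0.04 ± 0.32, where Top2a had 2.28. The 12 S phase genes, such as the helicase subunits Mcm2 and Mcm3, all fell at both steps (medians -1.39 and -1.87) and all were higher in mESC (median 2.83). The summed level of the G2 and M phase list was 560 to 1190 CPM at E17.5, 190 to 293 at P4, 14.9 to 28.6 at A6w and 15.7 to 20.5 at A18w.

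The genes of most similar pattern were found by Pearson correlation of log2 CPM over the 16 cortex libraries, which share the 4 stages, so that r is high for any gene that changes with stage. For Top2a these were Cdk1, Prc1, Ccnb1 and Pclaf (r = 0.995 each) and Ube2c (0.994), of which Cdk1, Ccnb1 and Ube2c act at mitotic entry and exit, Prc1 in the division of the cell body and Pclaf at the replication clamp. For Top2b they were Nynrin (0.995), Igf2bp2 (0.994), Pde7a and Rrm2 (0.993 each) and Mapk1ip1l (0.992). For Top1 the closest was Creb1 (0.983), for Top3a Zfp217 (0.972) and for Top3b Pmf1 (0.961). Top2a and Top2b correlated at r = 0.99 over these libraries. With the stage means removed, the median r with the 19 G2 and M phase genes was 0.66 for Top2a, 0.43 for Top3a, 0.38 for Top1, 0.36 for Top2b and 0.34 for Top3b, over 16 libraries. With the S phase genes it was 0.52 for Top2a, 0.49 for Top3b, 0.47 for Top3a, 0.26 for Top2b and 0.24 for Top1. With all genes tested it lay between -0.02 and 0.02. The E17.5 libraries numbered 1 exceeded those numbered 2 for each of the 5 genes in both genotypes, by 0.82 (WT) and 0.62 (Mcph1KO) on the log2 scale for Top2a and by 0.24 (WT) and 0.19 (Mcph1KO) for Top2b; the part of tissue makeup in this was not tested.

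Because TOP1 and TOP2B are known to assist transcription of long genes in neurons, a list of 16 long genes expressed there was described. Whether these 16 genes depend on either enzyme was not tested. At P4 against E17.5, where Top1 had -0.99 and Top2b -0.57, the list had a median log2 fold change of 0.98 (all genes 0.03). Of the 16 genes 12 were called higher and none lower, where 36.8% of all genes were called and 18.9% higher. Examples were the adhesion genes Cadm2 (1.69 ± 0.14) and Opcml (1.59 ± 0.17) and the synaptic scaffold gene Dlg2 (1.38 ± 0.16). At A6w against P4, 7 were called higher and Ctnna2 lower, a share of calls not above the 55.1% of all genes (27.3% higher). The median was 0.43 (all genes -0.06), where Top2b had -1.39. Magi2 had 0.95 ± 0.13 and Nrxn3 0.96 ± 0.14. None was called at A18w against A6w (median -0.28, all genes -0.01), though all 16 lay below 0, where 9805 of all 19199 genes did. The list summed to 57.5 and 65.4 CPM in mESC and 1270 to 1470 CPM in E17.5 cortex. Most of the mESC sum was Dmd, which had 47.4 to 55.8 CPM there. In mESC 15 of the 16 were called lower, where 35.3% of all genes were called lower, and Dmd was higher (0.80 ± 0.20). Mature neuron markers rose too, at 9850 to 10800 CPM at A18w and 563 to 653 CPM at E17.5 in sum. All 6 were called higher at A18w than at E17.5, where 65.4% of all genes were called and 32.0% higher. At A6w against P4 their median was 2.66, against 0.43 for the long genes. The part of neuron maturation in the rise of the long genes was not tested.

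The libraries labelled Mcph1KO were set against WT in the cortex fit. No topoisomerase gene was called at any stage, where 0.00% of all genes were called by edgeR at each single stage, nor in the average over the 4 stages, where 0.0521% were (10 genes, 0.0417% higher and 0.0104% lower). At an unadjusted p under 0.05 there were 303 genes at E17.5, 718 at P4, 763 at A6w and 326 at A18w. DESeq2 called 10, 13, 24 and 3 genes, with no topoisomerase gene among them. Averaged over stages, the log2 fold changes were 0.14 ± 0.26 for Top2a, -0.08 ± 0.13 for Top1, 0.04 ± 0.08 for Top2b, 0.05 ± 0.16 for Top3a and 0.02 ± 0.08 for Top3b (SE), each with an adjusted p of 1 by edgeR. These values differed from 0 by less than their SE.

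By stage, Top2a had a log2 fold change of 0.24 ± 0.43 at E17.5, -0.44 ± 0.44 at P4, 0.42 ± 0.56 at A6w and 0.35 ± 0.60 at A18w. At P4 the higher WT library, numbered 1 with 73.0 CPM, was also the highest P4 library for thalamus markers (223 CPM, where the lowest P4 library had 26.2) and for the G2 and M phase list (293 CPM); their part in the difference was not tested. Top1 at P4 had -0.28, with the libraries labelled Mcph1KO at 70.8 and 134 CPM and WT at 128 and 121 CPM. The genotype difference was not shown to depend on stage for any of the 5 genes: the test of genotype by stage called none of 19199 genes (0.00%; 435 at an unadjusted p under 0.05 and 8 with DESeq2), and its unadjusted p by edgeR was 0.558 for Top2a, 0.763 for Top1, 0.615 for Top2b, 0.761 for Top3a and 0.712 for Top3b. No gene of the partner, G2 and M phase, S phase or long neuronal lists was called between genotypes in the average over stages (medians 0.00, 0.03, 0.01 and 0.01). Without a call at any stage, the 19 G2 and M phase genes had medians of 0.24 at E17.5 (19 above 0), -0.33 at P4 (2 above 0), 0.17 at A6w (12 above 0) and 0.01 at A18w (10 above 0). Of all 19199 genes, 9322, 9716, 9613 and 9161 lay above 0 at these stages, with medians of 0, 0, 0 and -0.01. The list also moved as a whole between libraries of a group, at 1060 and 560 CPM in E17.5 WT, so its genes are not separate observations.

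**Figure D5:**
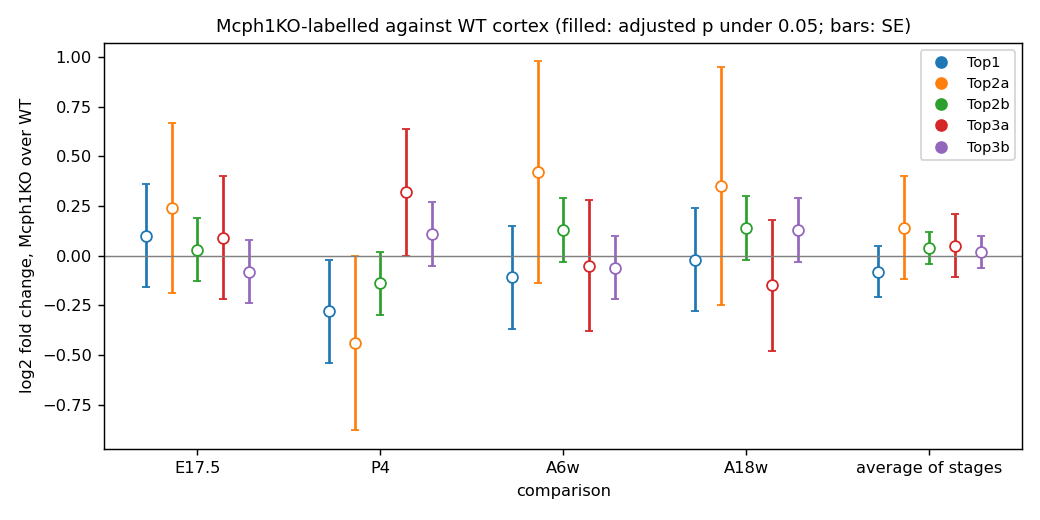
Log2 fold change of the libraries labelled Mcph1KO over WT (bars: SE; open points: adjusted p of 0.05 or more) for each topoisomerase gene at the 4 cortex stages and in their average. All points are open, and the averages lie between -0.08 and 0.14.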

How the data were processed

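RNA was sequenced from 18 libraries in 9 groups of 2, assigned by their labels alone. The estimated counts per gene were deposited by the authors as whole numbers. Salmon 1.4.0, Trimmomatic 0.39, FastQC and the builds GRCm38.p6 and mm10 are named, per the submitters' processing notes. Strand use, annotation release and gene-level summing are not given in the sources used here. Of the gene IDs, 54107 were matched to GENCODE M21 symbols and 174 were not. The tests were run in R 4.3.3 by edgeR 4.0.16 on genes that passed filterByExpr with a minimum count of 10 and a minimum total of 15 (TMM factors, quasi-likelihood F tests, 1 mean per group), in a cortex fit (16 libraries, 8 residual degrees of freedom) and a WT fit (10 libraries, 5 residual degrees of freedom). The SE of a log2 fold change is its size divided by the square root of F. All 5 topoisomerase genes passed the filter in both fits, with 27 to 24240 counts per library. Results were recomputed with DESeq2 1.42.0, without TMM factors, with RLE factors, unfiltered, with other sets of libraries, a replicate block and leaving out each library.

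The genes and lists were chosen with earlier results of these data known. Named genes were the 5 topoisomerase genes, up to 4 of a list per comparison (the called ones of smallest adjusted p), partner genes as needed, and the 5 of highest correlation with each, leaving out clone and model names. Ctnna2, Dmd and, in mESC, Mki67 were named after their values were seen. Values of some list genes are not reported here.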

Additional observations from a re-analysis of the deposited data

How the results depend on the processing

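The fall of Top2a and Top2b at P4 against E17.5, at A6w against P4 and at A18w against E17.5, and the differences of Top2a, Top2b, Top3a and Top3b between mESC and E17.5 WT, kept their direction under every alternative run. They kept their call too, except that of Top2b at P4 against E17.5 within WT alone. The number of topoisomerase genes called moved to 2 at P4 against E17.5 (4 as reported) with WT libraries only and to 5 at A6w against P4 (3 as reported) without TMM factors. No alternative called a topoisomerase gene between genotypes or between the adult stages. Leaving out 1 library gave 3 to 5 and 2 to 3 calls at those 2 steps.

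Small differences changed sign. Without both A18w libraries numbered 1 the genotype difference, averaged over stages, was -0.01 for Top2a and 0.00 for Top3b, at A18w it was -0.28 for Top2a and -0.01 for Top2b, and A18w against A6w gave 0.06 for Top1, 0.03 for Top2b and 0.02 for Top3b. Top1 between genotypes at A18w was 0.01 without TMM factors and 0.00 with only the libraries compared. Top3b at A18w against A6w was 0.07 within the libraries labelled Mcph1KO. Leaving out 1 library at a time, the genotype difference averaged over stages ran from -0.21 to 0.02 for Top1, -0.09 to 0.30 for Top2a, -0.03 to 0.16 for Top3a and -0.01 to 0.07 for Top3b. At E17.5 it ran from -0.10 to 0.29 for Top1, -0.10 to 0.70 for Top2a, -0.08 to 0.15 for Top2b, -0.20 to 0.46 for Top3a and -0.22 to 0.09 for Top3b. At P4 it ran from -0.80 to 0.10 for Top1 and -0.83 to 0.08 for Top2a. At A6w it ran from -0.30 to 0.06 for Top1, -0.50 to 1.05 for Top2a and -0.38 to 0.38 for Top3a. At A18w it ran from -0.17 to 0.15 for Top1, -0.33 to 0.81 for Top2a and -0.01 to 0.31 for Top2b. The stage difference, A18w against A6w averaged over genotypes, ran from -0.15 to 0.03 for Top1 and -0.59 to 0.21 for Top2a. For Top2b the stage difference ran from -0.14 to 0.02 and for Top3b from -0.08 to 0.03. The causes were not tested.

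Replicate numbers were not taken to pair libraries, because the labels do not say what a shared number means. Deviations of same-numbered libraries from their group means correlated at 0.478 at E17.5, 0.209 at P4, 0.0829 at A6w and 0.295 at A18w (0.0873 for mESC and E17.5 WT). A shared source behind a number, most of all at E17.5, was therefore not excluded. With the replicate number as a block, 5 topoisomerase genes were called at P4 against E17.5 and 4 at A6w against P4, the added ones being Top3b (adjusted p = 0.035) and Top1 (0.0321). Over all genes the block called 7, 5, 4 and 4 between genotypes at E17.5, P4, A6w and A18w (0 as reported at each), 16 on average (10 as reported), 9 for genotype by stage (0 as reported) and 246 at A18w against A6w (26 as reported), with no topoisomerase gene among them. Counts over all genes moved more: between genotypes on average 10 genes, with 1 to 124 under the alternatives, at A18w against A6w 26, with 0 to 598, and at P4 against E17.5 7062, with 3502 within WT, 3594 within the libraries labelled Mcph1KO, 4476 without E17.5 WT library 1, 4619 without E17.5 Mcph1KO library 1 and 2898 without both. Without a filter on low counts, 105, 225, 262 and 107 genes differed between genotypes at E17.5, P4, A6w and A18w, and 466 for genotype by stage. Adult Top2a, at 27 to 83 counts per library, is the level that depth limits.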
